A study of Mus musculus with 22 samples.

Results

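RNA 3′ ends that face each other on opposite strands were followed through 20 libraries of 3′READS. The assay reads RNA fragments that border on poly(A), so that every end has a position, a strand and a number of reads. Of 612268 positions listed over these libraries, 17313 held at least 200 reads in the pooled libraries and lay outside the mitochondrial genome (8778 on the plus and 8535 on the minus strand). Members were chosen by these pooled reads and by position. A plus-strand and a minus-strand end were taken as a pair when each was the nearest of these ends to the other on the opposite strand. Of 2771 such pairs, 254 had their ends at most 300 nt apart, and these 254 pairs, with 508 ends or 2.93% of all ends kept, are described here. The other pairs, used for comparison, were 234 at over 300 to 1000 nt, 477 at over 1000 to 5000 nt and 1806 at over 5000 nt.

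The libraries came from mouse cell lines, all with the strain label C57BL/6, in 10 groups of 2 libraries. C2C12 myoblasts were measured as control and siPcf11 cells, each as total RNA and as newly made RNA, marked by 1 h of growth in 50 µM of the nucleoside 4-thiouridine (4sU), and again as proliferating and differentiated cells without siRNA. NIH3T3 fibroblasts were control or siPcf11, and 4T1 mammary carcinoma cells were control or Pcf11-IPAKO, a genotype label that the sources used here do not spell out, and for which they do not say whether the cells were 1 clone. The label of the controls is untreated, without mention of any control siRNA, so an effect of transfection and an effect of Pcf11 cannot be told apart. The days of differentiation are not given, and the sources do not say whether the paired libraries of a group were grown as separate cultures. Libraries held 1887532 to 4432717 reads. Positions are in mm9 and carry no gene names in the deposited tables, so the level of Pcf11, the markers of the cell lines and the genes at each pair were not analysed here.

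Neighbouring genes on opposite strands can end toward each other, tail to tail. Their 3′ ends may then lie so close that RNA polymerases arriving from either side use overlapping DNA, and transcripts that pass each other's ends are complementary over the shared stretch. PCF11 is a subunit of the machinery that cleaves pre-mRNA ahead of polyadenylation, and it also helps RNA polymerase II to stop after cleavage.

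In 100 of the 254 pairs the plus end lay beyond the minus end, so that transcripts reaching both ends would overlap, and in 154 the ends left a gap. Overlapping pairs were closer, with a median distance of 48.5 nt (quartiles 15.25 and 98.25 nt) against 108.5 nt for gap pairs (60.25 and 183.25 nt). Of the 90 pairs within 50 nt, 54 overlapped, whereas of the 40 pairs beyond 200 nt, 6 did. Beyond 300 nt the gap order held most pairs. It had 201 pairs, and the other order 33, at over 300 to 1000 nt. At over 1000 to 5000 nt these were 439 and 38, and at over 5000 nt 1055 and 751. A plus end beyond the minus end was thus common at the shortest and the longest distances and rare between 300 and 5000 nt. For ends far apart this order alone does not show that transcripts overlap, since their starts were not analysed here. The cutoffs were met closely by a few pairs. At exactly 300 nt lay the ends at 134008891 and 134009191 and those at 148084541 and 148084841, both on chromosome 7 (the plus end is given first throughout). The nearest pairs left out were 306 nt apart (chromosome 11, 48619600 and 48619906) and 310 nt apart (chromosome 2, 26251717 and 26252027). The end with the fewest reads among members held 200, as on chromosome X at 131122702 (partner at 131122687), and the nearest ends left out held 197, on chromosome 14 at 55717823 (partner at 55717687) and on chromosome 5 at 114813350 (partner at 114813581).

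**Figure D1:**
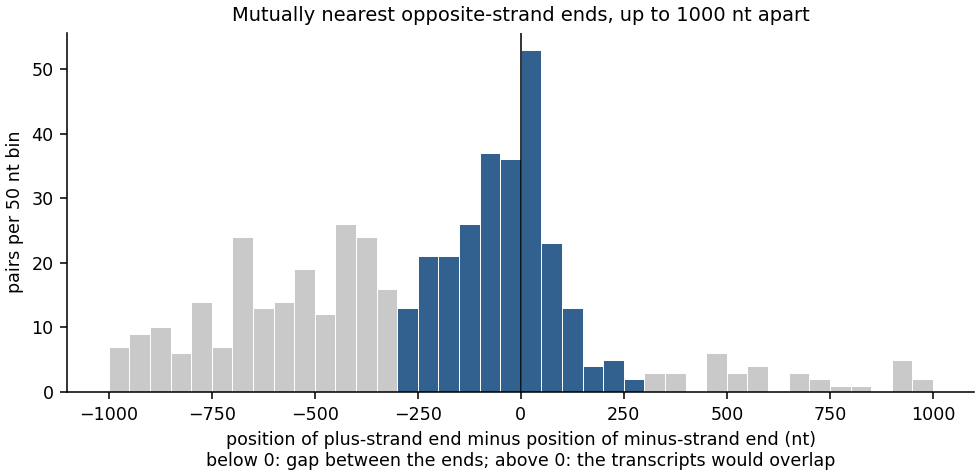
Number of mutually nearest plus and minus ends (vertical axis) in bins of 50 nt of the plus position minus the minus position (horizontal axis, nt), with the 254 pairs at up to 300 nt in blue. The tallest bin, 53 pairs, holds overlaps of up to 50 nt. Beyond 300 nt gap pairs (left) outnumber pairs with the plus end beyond the minus end (right).

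One end usually dominated a pair. Over all libraries the weaker end held a median of 23.2% of a pair's reads, with a range from 0.862% to 49.9%, and the plus end was the stronger in 129 pairs. In 64 pairs the weaker end held less than 10%, and in 50 more than 40%. The median was 25.1% in overlapping and 21.8% in gap pairs. Other kept ends lay within 1000 nt of neither end on its own strand in 146 pairs, of 1 end in 90 and of both in 18. Reads of all groups were pooled in choosing ends, so an end could qualify on 1 group. Without the reads of some group, 67 of the 508 ends would have missed 200 reads, most often without the differentiated C2C12 cells (31 ends) or the NIH3T3 controls (29 ends).

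The lower end of a pair was weaker in siPcf11 C2C12 cells than in their controls. Levels are given as CPM, counts scaled to library size, and here as reads within 24 nt of the listed position, since an end is listed a few nt away in some cell lines. Within each library the higher and the lower end of every pair were found, and the median was taken over the 254 pairs. For the lower end this median was 9.71 and 8.48 CPM in the 2 control libraries of C2C12 total RNA and 4.77 and 4.89 CPM under siPcf11. For the higher end it was 54.7 and 51.7 CPM against 36.0 and 36.3 CPM. Both levels were below the controls in both siPcf11 libraries, and the groups did not overlap. Scaling to library totals, used for these medians, puts siPcf11 C2C12 cells lower against controls than the scaling of the tests below. Such medians are not given for farther pairs. In bulk RNA, fewer cells with an RNA and less of it per cell cannot be told apart. Both ends reached 1 CPM in 228 and 229 pairs of the controls and in 197 and 202 under siPcf11. In 4sU RNA the median lower end was at 8.57 and 8.66 CPM in controls and at 4.58 and 4.77 CPM under siPcf11. The 4T1 controls, at 4.74 and 5.60 CPM, were as low as the siPcf11 C2C12 cells, and Pcf11-IPAKO cells stood at 4.15 and 5.10 CPM, overlapping them. NIH3T3 cells had 8.11 and 8.56 CPM in controls and 7.16 and 6.27 CPM under siPcf11. Proliferating and differentiated C2C12 cells overlapped, at 9.51 and 10.6 CPM and at 9.17 and 10.2 CPM.

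**Figure D2:**
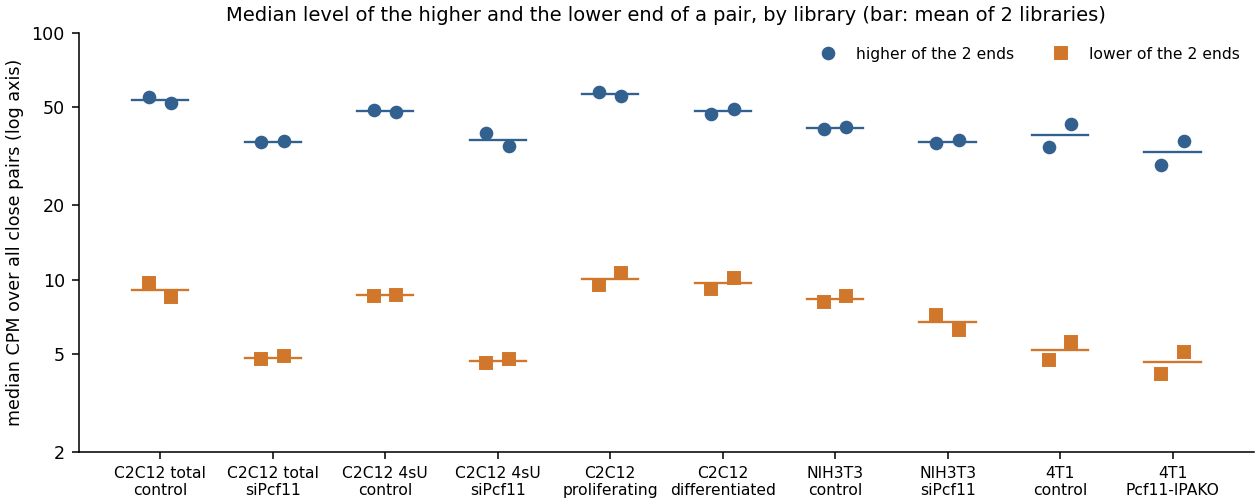
Median CPM over the 254 pairs (vertical log axis) of the higher end (blue circles) and the lower end (orange squares) of each pair, for 10 groups of 2 libraries, with bars for group means. In C2C12 total RNA the lower end stands at 9.71 and 8.48 CPM in controls and at 4.77 and 4.89 CPM under siPcf11.

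The share of all reads that fell on the 508 ends moved the same way. It was 3.45% and 3.30% in controls of C2C12 total RNA and 2.72% and 2.66% under siPcf11, and 2.97% and 2.93% against 2.48% and 2.48% in 4sU RNA. Ends of pairs beyond 5000 nt took 16.5% and 16.6% of reads in total RNA controls and 17.5% and 17.6% under siPcf11, and did not shrink. The classes between fell as well, from 3.34% and 3.23% to 2.91% and 2.79% at over 300 to 1000 nt and from 5.47% and 5.39% to 4.90% and 4.82% at over 1000 to 5000 nt, so the lower share was not particular to pairs within 300 nt. The close pairs held 3.34% and 3.49% in 4T1 controls and 2.86% and 2.84% in Pcf11-IPAKO cells, and 3.46% and 3.36% in proliferating against 2.94% and 2.94% in differentiated C2C12 cells. In NIH3T3 the close pairs held 3.69% and 3.68% in controls and 3.74% and 3.82% under siPcf11. That direction rested on 1 pair, on chromosome 2 at 179993149 and 179993244, whose plus end alone held 208084 of the pooled reads. Without it the NIH3T3 shares were 2.82% and 2.80% against 2.71% and 2.65%. With 2 libraries a group no exact test of such a share can go below p = 0.333.

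The 5 pairs with the most reads on their weaker end show how differently neighbouring ends behave. The most highly read of them lay on chromosome 8 at 86095525 and 86095597, with a gap of 72 nt. In C2C12 total RNA its plus end stood at 541 and 536 CPM in controls and at 804 and 664 CPM under siPcf11 (log2 fold change 0.61, SE 0.12, edgeR adjusted p = 4.53e-06). Its minus end stood at 310 and 276 CPM and at 234 and 259 CPM (log2 fold change -0.08, SE 0.13, edgeR adjusted p = 0.659). In total RNA the plus end rose while the minus end did not pass the test. The change of balance (adjusted p = 0.00523) was lost without control replicate 1 and without siPcf11 replicate 1 (adjusted p up to 0.117). In 4sU RNA both ends rose under siPcf11, the plus end by 0.95 (SE 0.12, edgeR adjusted p = 1.27e-12) and the minus end, from 163 and 133 to 200 and 165 CPM, by 0.60 (SE 0.14, edgeR adjusted p = 0.000135). The call on the minus end was lost without siPcf11 replicate 1 (adjusted p = 0.12) and with library totals (adjusted p = 0.0614), and the balance did not pass (adjusted p = 0.195). In labelled RNA of the controls the minus end was lower than in total RNA, at 163 and 133 CPM (log2 fold change -1.05, SE 0.14, edgeR adjusted p = 1.93e-11). In NIH3T3 controls the order of the strands was the other way round, with 113 and 100 CPM on the plus and 295 and 279 CPM on the minus end.

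On chromosome 9, at 110287450 and 110287591 with a gap of 141 nt, both ends rose under siPcf11. In total RNA the plus end had 68.0 and 111 CPM in controls and 108 and 145 CPM under siPcf11, and the minus end 221 and 219 CPM and 299 and 292 CPM. The minus end rose by a log2 fold change of 0.59 (SE 0.14, edgeR adjusted p = 7.27e-05) after scaling, and the plus end by 0.67 (SE 0.16, adjusted p = 0.00016), a call lost without control replicate 1 (adjusted p = 0.131). The balance of the 2 ends, tested below, did not pass (log2 change of plus to minus 0.09, adjusted p = 0.768). During differentiation the plus end of this pair fell from 182 and 186 CPM to 92.2 and 102 CPM (log2 fold change -0.78, SE 0.12, edgeR adjusted p = 8.07e-07), and the minus end, at 208 and 205 CPM before and 183 and 168 CPM after, did not pass (adjusted p = 0.452).

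On chromosome 8 at 73027977 and 73028194, 217 nt apart, the ends changed in opposite directions. The plus end had 217 and 185 CPM in total RNA controls and 290 and 256 CPM under siPcf11 (log2 fold change 0.61, SE 0.14, edgeR adjusted p = 4.79e-05). The minus end had 223 and 216 CPM and 98.5 and 90.0 CPM (log2 fold change -1.06, SE 0.15, edgeR adjusted p = 1.05e-10). Ends at about equal levels in controls thus stood far apart under siPcf11, with no overlap between the groups on either strand. The change of plus to minus was 1.67 (SE 0.23, adjusted p = 5.5e-11) in total and 2.60 (SE 0.23, adjusted p = 1.47e-21) in 4sU RNA. In 4T1 cells the minus end was as high, at 231 and 376 CPM in controls, but the plus end had 5.42 and 2.67 CPM.

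At 136598817 and 136598936 on chromosome 5, 119 nt apart, both ends fell, the minus end more. The minus end had 143 and 138 CPM in total RNA controls and 23.8 and 18.3 CPM under siPcf11 (log2 fold change -2.58, SE 0.20, edgeR adjusted p = 1.59e-30). The plus end had 336 and 319 CPM and 172 and 173 CPM (log2 fold change -0.75, SE 0.14, edgeR adjusted p = 4.36e-07). Both ends also fell in differentiated cells, to 141 and 135 CPM from 226 and 241 CPM on the plus strand and to 54.8 and 38.8 CPM from 119 and 123 CPM on the minus strand (adjusted p = 1.44e-05 and 2.63e-09). In 4T1 controls the minus end was the higher, at 242 and 277 CPM against 103 and 81.6 CPM.

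The fifth pair, on chromosome 4 at 118105219 and 118105506 with a gap of 287 nt, held the steepest loss of a well-read end. Its minus end had 208 and 213 CPM in total RNA controls and 15.4 and 23.2 CPM under siPcf11 (log2 fold change -3.25, SE 0.19, edgeR adjusted p = 7.62e-47), and 263 and 240 CPM in proliferating against 20.7 and 18.5 CPM in differentiated cells (log2 fold change -3.55, SE 0.15, adjusted p = 4.08e-23). Its plus end had 327 and 286 CPM and 432 and 315 CPM in total RNA, and 329 and 354 CPM and 229 and 211 CPM in differentiation. The balance moved toward the plus end in both comparisons, by 3.68 (SE 0.26, adjusted p = 1.85e-31) and 3.05 (SE 0.20, adjusted p = 3.98e-12). In NIH3T3 the same minus end had 119 and 117 CPM in controls and 52.6 and 11.0 CPM under siPcf11, which did not pass (log2 fold change -1.87, SE 0.63, adjusted p = 0.239). The 2 siPcf11 libraries of NIH3T3 differed widely there, and both lay below both controls.

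**Figure D3:**
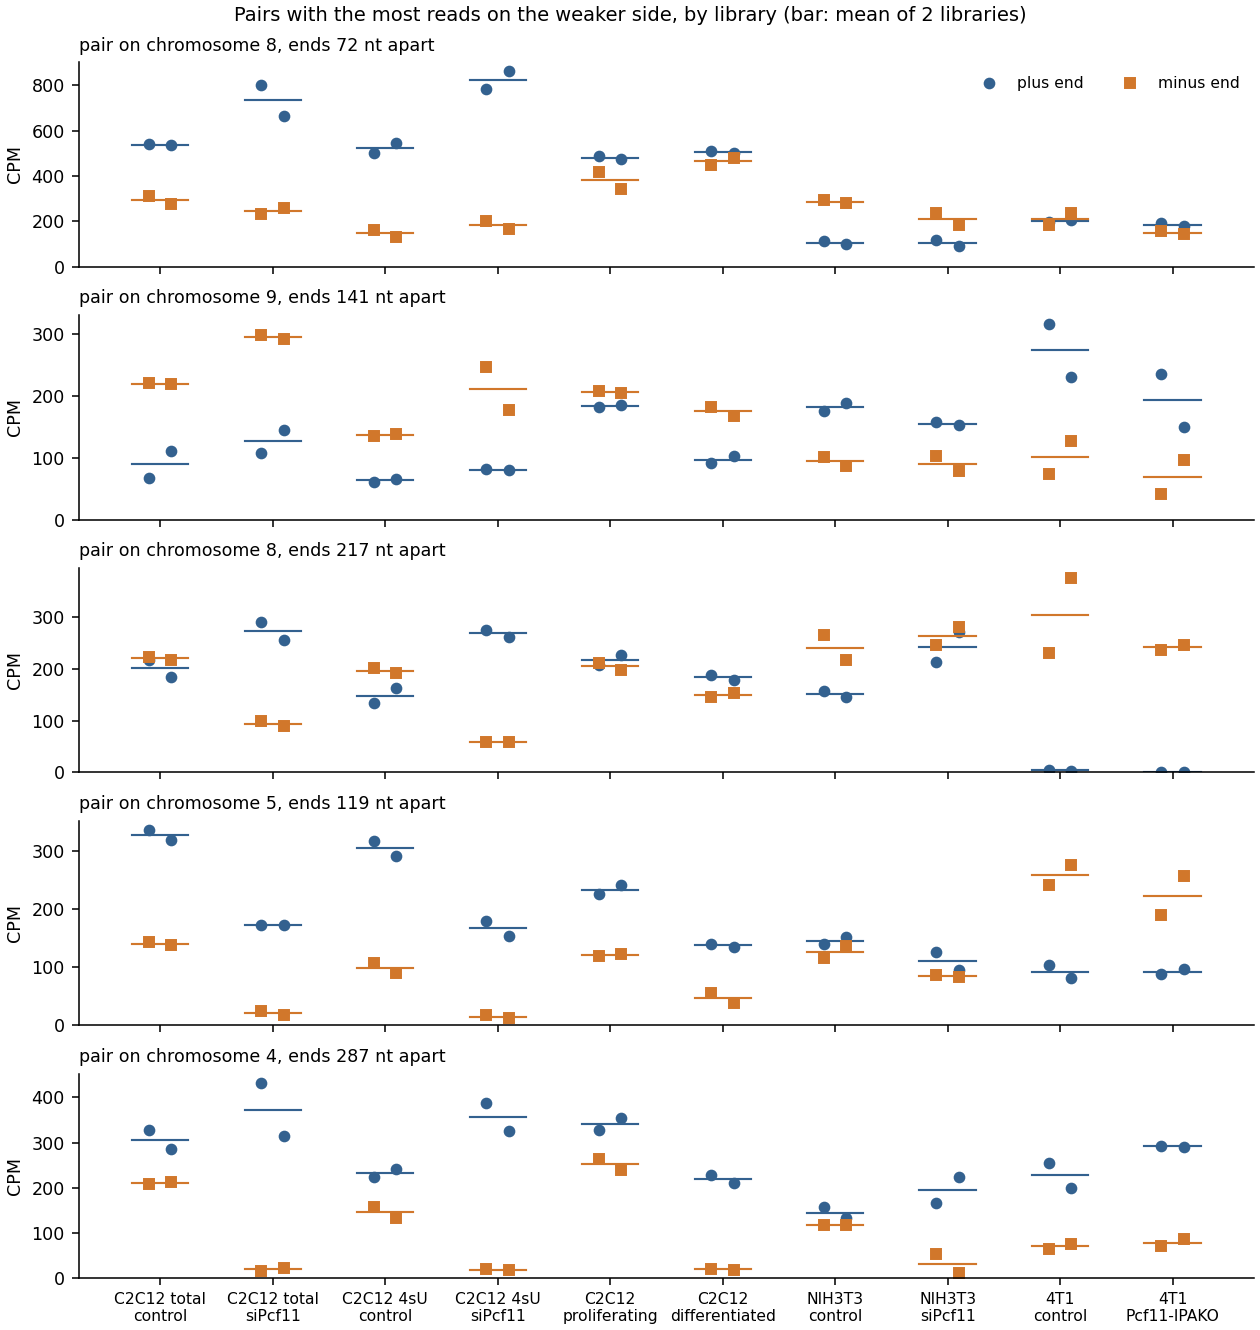
CPM within 24 nt (vertical axes) of the plus end (blue circles) and minus end (orange squares) of the 5 pairs with the most reads on the weaker end, for 10 groups of 2 libraries, with bars for group means. The minus end of the chromosome 4 pair falls from 208 and 213 CPM to 15.4 and 23.2 CPM under siPcf11 in C2C12 total RNA and is at 20.7 and 18.5 CPM in differentiated cells, while its plus end stays above 200 CPM in these groups.

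Ends on neighbouring bases, 1 nt apart, were found in 7 pairs, of which the 3 with the most reads are described. On chromosome 5, at 135852013 and 135852012, the minus end dominated, with 117 and 132 CPM in total RNA controls and 164 and 180 CPM under siPcf11, whereas the plus end had 17.7 and 24.2 CPM and 4.77 and 6.11 CPM. The plus end fell (log2 fold change -1.75, SE 0.36, edgeR adjusted p = 8.58e-06) and the minus end rose (0.64, SE 0.15, adjusted p = 8.96e-05), without overlap between groups. In differentiated cells both ends were lower, the minus end more, from 164 and 195 CPM to 46.8 and 52.6 CPM (log2 fold change -1.72, SE 0.14, edgeR adjusted p = 4.11e-14). The plus end went from 31.6 and 29.3 CPM to 22.5 and 18.3 CPM (-0.45, SE 0.19, edgeR adjusted p = 0.0465). That call was lost without proliferating replicate 1 and without either differentiated replicate. On chromosome 10, at 78047247 and 78047248, the minus end fell from 96.7 and 76.7 CPM to 26.5 and 37.9 CPM under siPcf11 in total RNA (log2 fold change -1.24, SE 0.19, edgeR adjusted p = 5.33e-09), and the plus end, at 55.2 and 63.4 CPM and then 41.9 and 59.9 CPM, did not pass (adjusted p = 0.887). On chromosome 11, at 95908744 and 95908745, the plus end fell (log2 fold change -0.54, SE 0.18, edgeR adjusted p = 0.00913), a call lost without control replicate 1 and without either siPcf11 replicate, with adjusted p up to 0.212. So ends that touched could change in opposite directions, as on chromosome 5 under siPcf11.

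Under siPcf11 in C2C12 total RNA, more ends of close pairs fell than rose. Of the 508 ends, 439 had enough reads to be tested (edgeR, fitted on all 17014 sites with enough reads in these cells), and 189 were lower and 56 higher at an adjusted p under 0.05. That is 43.1% lower and 12.8% higher, where over all 14012 kept ends tested 27.8% were lower and 22.4% higher (50.2% in either direction). The median log2 fold change was -0.42 for the close pairs and -0.07 for all kept ends tested. Scaling by library totals in place of TMM moved the median of all sites tested from -0.02 to -0.18 and that of the close pairs to -0.59, with 213 lower and 47 higher. Close pairs thus stood below the median of all sites by about the same amount under both scalings.

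The lower share declined with the distance within a pair. At over 300 to 1000 nt 36.5% of 400 ends tested were lower and 20.5% higher, at over 1000 to 5000 nt 32.3% and 22.7% of 803, and at over 5000 nt 22.6% and 25.6% of 2902. The median log2 fold changes of the 4 distance classes, from close to far, were -0.42, -0.27, -0.15 and 0.04. In 4sU RNA they were -0.27, -0.18, -0.05 and 0.09, in the same order. These classes are described without a test between them, and the base composition and surroundings of the ends were not compared.

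**Figure D4:**
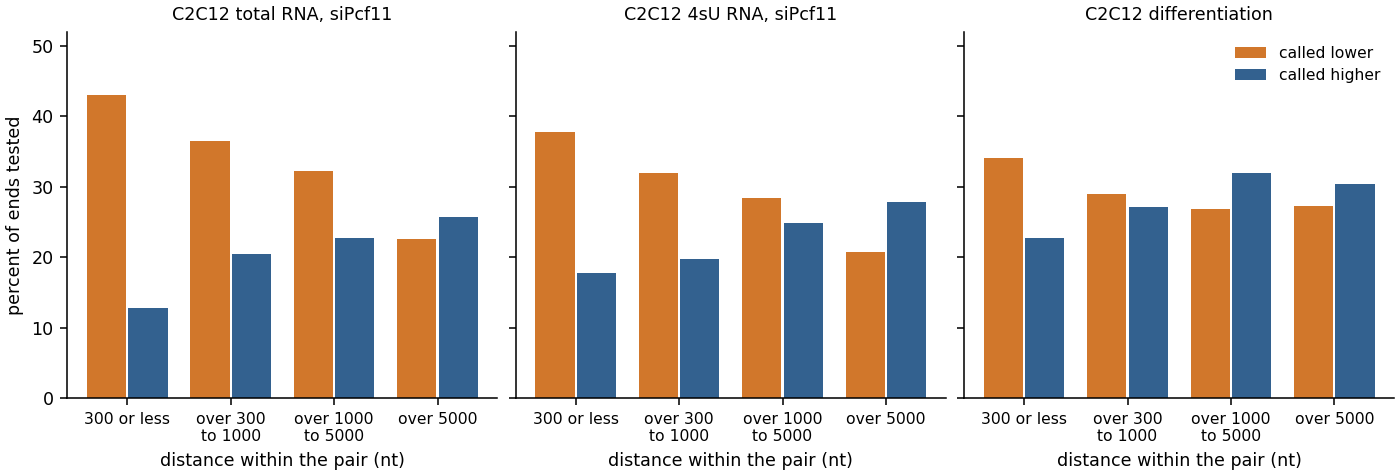
Percent of tested ends (vertical axis) called lower (orange) or higher (blue) at an edgeR adjusted p under 0.05, by the distance within the pair (horizontal axis, nt), for siPcf11 against control in C2C12 total and 4sU RNA and for differentiated against proliferating C2C12 cells. In total RNA the lower calls go from 43.1% in close pairs to 22.6% beyond 5000 nt.

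Losses were seen on both the leading and the trailing end. To rank the ends of a pair by reads that enter no C2C12 comparison, the controls of NIH3T3 and 4T1 were used. Among the 190 pairs with both ends tested, the end that was higher in those lines was lower under siPcf11 in 85 pairs and higher in 22, with a median log2 fold change of -0.39. For the other end these were 83, 27 and -0.62. In the 73 overlapping pairs the medians were -0.46 and -0.66 and in the 117 gap pairs -0.32 and -0.62. By strand, the medians were -0.36 for the plus and -0.92 for the minus end of overlapping pairs, and -0.40 and -0.39 in gap pairs. Ranked by pooled reads, which include the libraries compared, the weaker end had medians of -1.19 in overlapping and -0.51 in gap pairs. The differences between overlapping and gap pairs were not tested.

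Of the 190 pairs, 67 had both ends called, 37 with both lower, 2 with both higher and 28 in opposite directions. A further 83 had 1 end called and 40 had none. Both ends were called in 35.3% of close pairs, in 32.8% of pairs at over 300 to 1000 nt, in 31.9% at over 1000 to 5000 nt and in 22.5% beyond 5000 nt. In these farther classes both ends were lower in 27 of 174, 36 of 342 and 84 of 1163 pairs and higher in 10, 23 and 82. How far such counts follow from the share of single ends called was not tested. Opposite directions made up 41.8% of the close pairs with both ends called and 35.1%, 45.9% and 36.6% in the farther classes, so the close pairs lay within the range of the others. Across the 190 pairs the log2 fold changes of the plus and the minus end had a Pearson r of -0.09 and a Spearman rho of -0.06, and beyond 5000 nt the 1163 pairs had an r of 0.08. These are descriptions over pairs measured in the same libraries. The counts depend on single libraries, with 24 pairs both lower without control replicate 1 and 22 without siPcf11 replicate 2.

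**Figure D5:**
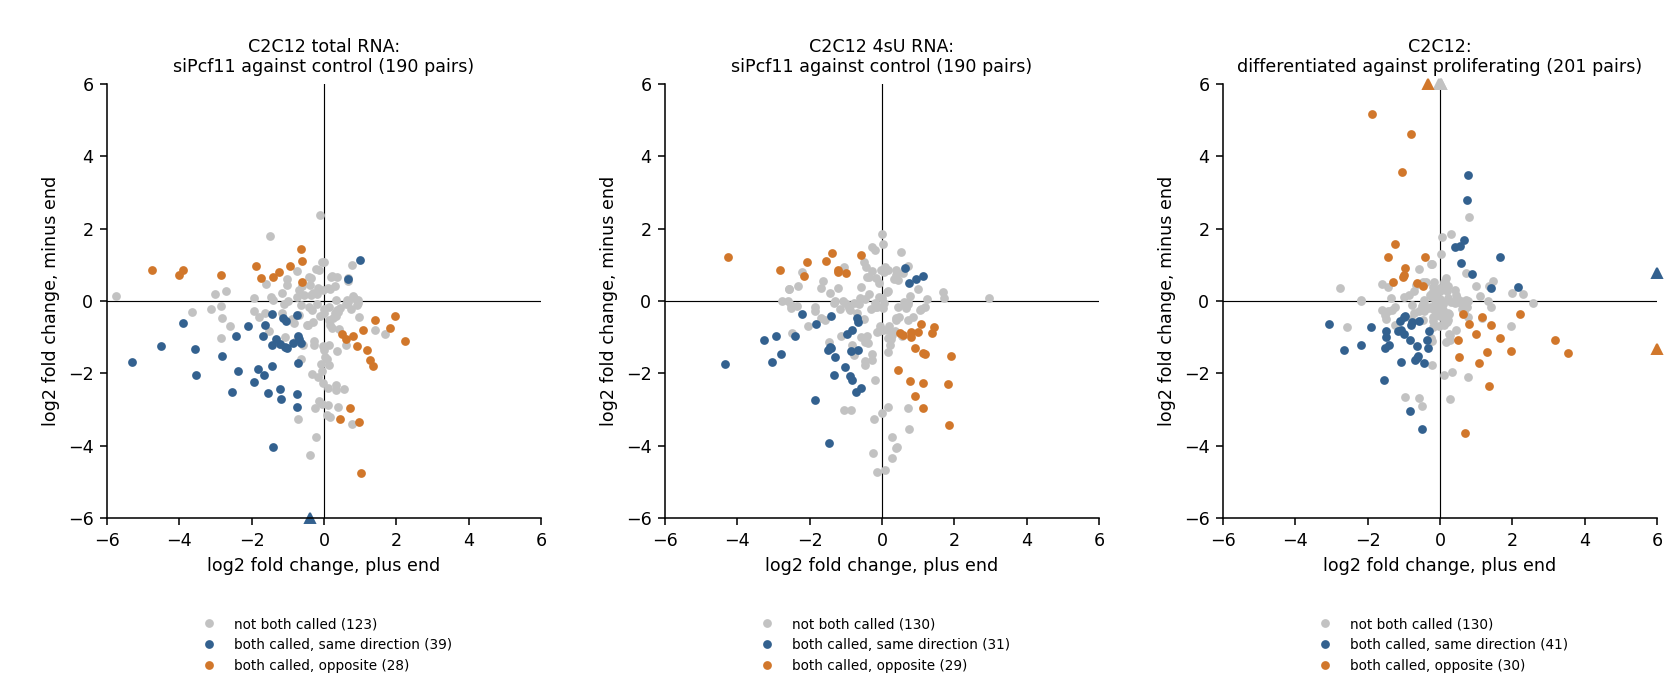
Log2 fold change of the plus end (horizontal axis) and of the minus end (vertical axis) of each close pair with both ends tested, for siPcf11 in C2C12 total and 4sU RNA and for C2C12 differentiation. Blue pairs have both ends called in the same direction (39, 31 and 41 pairs), orange pairs in opposite directions (28, 29 and 30), and triangles mark values beyond 6, where an end had few or no reads in a group and the fitted value is no measure of size.

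Among pairs with both ends lower, those named by the fitted change lay on chromosome 15 at 76534004 and 76533988 and on chromosome 5 at 138619915 and 138619848. These 2 pairs overlap by 16 and 67 nt. After scaling, the minus end of the chromosome 5 pair had 48.3 and 53.4 CPM in controls and 13.0 and 11.6 CPM under siPcf11 (log2 fold change -2.05, SE 0.25, edgeR adjusted p = 1.19e-13). Its plus end had 31 reads in controls and 2 under siPcf11, a ratio to library totals of 14.2 (95% counting interval 3.61 to 122). On chromosome 15 the plus end had 6.31 and 8.33 CPM and 1.13 and 1.29 CPM (log2 fold change -2.54, SE 0.68, adjusted p = 0.000897), and the minus end 12.2 and 7.95 CPM and 1.70 and 1.72 CPM (-2.51, SE 0.56, adjusted p = 4.41e-05). The levels were low except at the minus end on chromosome 5. All pairs named for changes of both ends were chosen among those whose groups do not overlap, so the separation of their libraries is fixed by the choice.

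Both ends rose in 2 pairs, the chromosome 9 pair above and a pair on chromosome 16 at 11075002 and 11075004. That pair lies within 24 nt of another close pair, and its ends had 10.5 and 9.09 CPM and then 18.1 and 21.1 CPM on the plus strand and 30.3 and 33.3 CPM and then 69.0 and 71.0 CPM on the minus strand (log2 fold changes 1.01 and 1.14, SE 0.32 and 0.20, edgeR adjusted p = 0.00491 and 1.33e-07). The call of its plus end was lost without control replicate 2 (adjusted p = 0.0521).

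Opposite changes were clearest on chromosome 14 at 21852895 and 21852970 and on chromosome 19 at 9001726 and 9001881, both gap pairs. On chromosome 14 the plus end had 568 and 548 CPM in controls and 1184 and 1515 CPM under siPcf11 (log2 fold change 1.28, SE 0.12, edgeR adjusted p = 2.57e-21). Its minus end, 75 nt away, had 13.9 and 10.6 CPM and 3.39 and 4.30 CPM (-1.63, SE 0.45, adjusted p = 0.0012). The strong end rose and its weak neighbour fell. On chromosome 19 the plus end had 72.3 and 62.9 CPM and 177 and 168 CPM (1.35, SE 0.16, adjusted p = 1.14e-14), and the minus end 26.1 and 20.5 CPM and 6.79 and 6.46 CPM (-1.80, SE 0.34, adjusted p = 1.06e-06). All 4 calls held without any 1 library.

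A direct test of the balance, the change in the ratio of plus to minus reads of a pair between groups, was fitted on all 2197 pairs of any distance with at least 10 reads on each side. It called 113 of the 211 close pairs tested (53.6%), 65 toward the plus and 48 toward the minus end, while 41.7% of the 1986 other pairs were called. The median size of the change was 1.29 on the log2 scale in close pairs and 1.03 in the others. The ratio of the 2 ends thus changed in many close pairs, and whether distance plays a part was not tested. Pairs were named by the fitted change, which is no measure of size where an end has few or no reads, and all 4 so named had lost an end to a few reads or none. On chromosome 11, at 94506530 and 94506310, the minus end had 25 and 27 reads in controls, beside 1543 and 1963 on the plus end, and 0 of 2202 pair reads under siPcf11, which allows a share of up to 0.136% (adjusted p of the balance 6.48e-09). To library totals this minus end was 15.9-fold lower, against a floor of 3 counts over the group. Folds against this floor leave out the counting error of the group with reads. On chromosome 16, at 5086380 and 5086542, the minus end had 8 reads in controls and 0 under siPcf11, 2.44-fold lower against this floor. The plus end went from 149 and 160 to 440 and 459 reads (adjusted p of the balance 0.000105). Toward the minus strand, the plus end at 116333851 on chromosome 3 (partner at 116334103) went from 80 reads to 1, a ratio of 73.3 (counting interval 12.8 to 2930). The plus end at 50013617 on chromosome 11 (partner at 50013657) went from 40 reads to 1, a ratio of 36.6 (6.21 to 1483), beside 1263 and 1273 reads on the minus end in controls and 1601 and 2149 under siPcf11.

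In 4sU RNA, where siPcf11 was compared with control over RNA labelled for 1 h, the picture was similar. Of 439 ends tested, 166 were lower and 78 higher, or 37.8% and 17.8%, with 24.7% lower and 25.1% higher over all kept ends tested (49.7% in either direction). With library totals 216 were lower and 49 higher, and the median of all sites moved from 0.03 to -0.26. Of 190 pairs, 60 had both ends called, 27 both lower, 4 both higher and 29 opposite, and without siPcf11 replicate 2 these were 37, 16, 2 and 19, with 17 opposite pairs without siPcf11 replicate 1. Higher ends were 51 without that library and 47 without the filter on low counts. Of close pairs 31.6% had both ends called, beside 28.2%, 27.8% and 25.2% in the farther classes, from near to far. In those classes both ends were lower in 22 of 174, 23 of 342 and 69 of 1163 pairs and higher in 6, 21 and 102. Opposite directions made up 48.3% of the close pairs with both ends called and 42.9%, 53.7% and 41.6% in the farther classes. The balance changed in 107 of 211 close pairs, 57 toward plus and 50 toward minus, and in 41.0% of the others. The 4sU and total RNA comparisons share no library, but the titles call the total RNA libraries input, so a 4sU library and the total library of the same number may come from the same RNA.

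Several of the same positions stood out in labelled RNA by the same choice of largest changes. The plus end of the chromosome 14 pair at 21852895 had 285 and 275 CPM in controls and 1116 and 908 CPM under siPcf11 (log2 fold change 1.85, SE 0.13, edgeR adjusted p = 1.29e-37), and its minus end went from 51 reads to 3, a ratio of 13.9 (counting interval 4.51 to 69.8). The plus end of the chromosome 19 pair at 9001726 had 49.8 and 37.4 CPM and 177 and 134 CPM (1.84, SE 0.17, adjusted p = 4.94e-23), and its minus end 22.1 and 21.1 CPM and 4.06 and 4.72 CPM (-2.29, SE 0.37, adjusted p = 1.6e-08). As in total RNA, the higher end of each pair rose and the lower end fell. On chromosome 5, at 31257464 and 31257415, an overlap of 49 nt, the minus end fell from 43.1 and 42.6 CPM to 11.7 and 13.6 CPM (-1.76, SE 0.26, adjusted p = 4.74e-10) and the plus end from 67 reads to 2, a ratio of 27.5 (7.31 to 231). On chromosome 15 both ends of the pair at 76534004 were lower again, the plus end with 4.56 and 5.11 CPM and 0.508 and 2.10 CPM (-1.86, SE 0.72, adjusted p = 0.0244), a call lost without either control replicate or without siPcf11 replicate 1 (adjusted p up to 0.226). Both ends of the chromosome 9 pair at 110287450 rose, by 0.64 (SE 0.17, adjusted p = 0.000828) on the plus strand, from 54.7 and 59.6 to 90.4 and 88.2 CPM, and by 0.92 (SE 0.14, adjusted p = 2.09e-09) on the minus strand, from 122 and 125 to 274 and 195 CPM. With library totals the plus end did not pass (adjusted p = 0.0818), nor did the minus end of the chromosome 16 pair at 11075002, which had 39.98 and 36.1 CPM and 56.9 and 66.6 CPM (adjusted p = 0.00119 with TMM, 0.0693 with library totals, and 0.0976 without siPcf11 replicate 2).

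For the balance in 4sU RNA, the pairs named by the fitted shift toward the plus strand again included the chromosome 16 pair at 5086380. Its minus end had 8 reads in controls and 0 of 682 pair reads under siPcf11, a share of up to 0.44%. Against a floor of 3 counts it was 2.19-fold lower. The other pair was on chromosome 3 at 36464649 and 36464871. Its minus end had 14 reads and then 0, 3.83-fold lower against this floor. Toward the minus strand, the plus end at 125005647 on chromosome 8 (partner at 125005616) held 19.5% and 24.7% of pair reads in controls and 0.483% and 0.73% under siPcf11, from 63 reads to 2, a ratio of 25.8 (counting interval 6.86 to 218; adjusted p of the balance 2.15e-13). The plus end at 47663988 on chromosome 8 (partner at 47663951) went from 95.2% and 95.1% to 50.0% and 60.0%, on 6 and 5 reads, a call lost without siPcf11 replicate 1 (adjusted p = 0.122). The difference between the siPcf11 responses of 4sU and total RNA, tested itself, was called at 1 of 439 close ends (0.542% of all kept ends tested were called) and at 0 of 211 pairs for the balance, with 14 pairs at an unadjusted p under 0.05 in edgeR and 0.00% of other pairs called.

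In control C2C12 cells, 4sU RNA was compared with total RNA, with fewer calls. Of 439 ends, 96 were lower and 25 higher in 4sU RNA, or 21.9% and 5.69%, against 14.5% and 8.99% of all kept ends tested (23.5% in either direction), and the median log2 fold change was -0.23 with -0.12 for all kept ends. The total RNA controls also serve the siPcf11 comparison. Calls fell to 58 without total control replicate 1 and to 56 without 4sU control replicate 2, and DESeq2 called 65. Both ends were called in 20 of 190 pairs, 12 both lower, 1 both higher and 7 opposite, which is 10.5% against 4.02% at over 300 to 1000 nt, 4.09% at over 1000 to 5000 nt and 5.67% beyond. This count was 6 and 7 without total control replicates 1 and 2 and 10 and 4 without 4sU control replicates 1 and 2. In the farther classes both ends were lower in 5 of 174, 7 of 342 and 23 of 1163 pairs and higher in 0, 2 and 17. The balance changed in 29 of 211 close pairs, beside 13.5% of the others, and in 6 to 16 pairs with any of the 4 libraries left out.

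The pair with both ends higher in 4sU RNA lay on chromosome 3 at 151899791 and 151899946, with 5.04 and 8.33 CPM in total and 32.6 and 42.2 CPM in 4sU RNA on the plus strand (log2 fold change 2.46, SE 0.29, edgeR adjusted p = 6.42e-14) and 13.0 and 9.85 CPM and 17.9 and 30.3 CPM on the minus strand (1.08, SE 0.27, adjusted p = 0.000892, and 0.256 without 4sU control replicate 2). Both ends were lower on chromosome 5 at 136211196 and 136211359, with 284 and 273 CPM in total and 164 and 142 CPM in 4sU RNA on the minus strand (-0.87, SE 0.14, adjusted p = 2.8e-08) and 64.3 and 57.9 CPM and 31.6 and 34.0 CPM on the plus strand (-0.89, SE 0.19, adjusted p = 5.04e-05). Both ends were also lower on chromosome 9 at 44144160 and 44144431 (-0.91 and -0.78, SE 0.17 and 0.18), where the minus end did not pass without 4sU control replicate 2 (adjusted p = 0.0643). These losses were moderate and of like size on both strands. Opposite changes on chromosome 3 at 79407736 and 79407725 and on chromosome 4 at 135524091 and 135524145 were lost when single libraries were left out, with adjusted p up to 0.279 and 0.327. The largest called shifts of balance toward plus, on chromosome 9 at 15121422 (partner at 15121358; 63.6% and 54.3% plus in total, 89.9% and 84.3% in 4sU RNA) and chromosome 16 at 4766747 (partner at 4766840; 25.0% and 16.4%, then 45.0% and 59.0%), were lost as well (adjusted p up to 0.318 and 0.223). Toward minus, the shift on chromosome 7 at 30032548 (partner at 30032540; 97.1% and 98.2%, then 91.3% and 91.9%; log2 change -1.95, SE 0.40, adjusted p = 0.00011) held without any 1 library, and that on chromosome 5 at 77778283 (partner at 77778270; 65.7% and 64.6%, then 43.5% and 33.0%) did not (adjusted p up to 0.243).

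C2C12 differentiation changed the ends of close pairs as often as other ends. Of 452 ends tested, 154 were lower and 103 higher in differentiated cells, or 34.1% and 22.8%, against 29.8% and 27.3% of all kept ends tested (57.1% in either direction). Their median log2 fold change was -0.15, and -0.05 for all kept ends. With library totals 176 were lower and 89 higher, and the median of all sites moved from 0.02 to -0.11. Both ends were called in 71 of 201 pairs, 30 both lower, 11 both higher and 30 opposite, or 35.3%, with 31.9%, 34.9% and 32.8% in the 3 farther distance classes. In these classes both ends were lower in 23 of 188, 29 of 367 and 104 of 1277 pairs and higher in 14, 42 and 147. Without differentiated replicate 1 there were 47 close pairs with both ends called, 19 both lower and 18 opposite, and without replicate 2 20 both lower. The 2 ends had a Pearson r of -0.01 over the 201 pairs. The balance was called in 119 of 213 close pairs, 67 toward plus and 52 toward minus, beside 56.1% of the others. By these counts, joint change and change of balance were about as frequent in close as in distant pairs.

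The pairs named for their fitted shift of balance in differentiation each had an end read almost only in differentiated cells. Such an end is among the members because of that group: without it, the 4 ends would have missed the minimum of 200 pooled reads, so their difference follows from the choice of ends and is given as a description. On chromosome 7, at 52594343 and 52594496, the plus end had 0 of 158 pair reads in proliferating cells, which allows a share of up to 1.90%, and 1022 and 1142 reads in differentiated cells, 97.9% and 96.4% of the pair, which made up 2164 of the 2170 pooled reads of this end. To library totals this end was at least 635-fold higher, while its minus partner went from 75 and 83 to 22 and 43 reads. On chromosome X, at 71024264 and 71024302, the plus end had 0 of 1133 reads and then 218 and 243 reads, at least 135-fold higher, beside a minus end that went from 510 and 623 to 949 and 1038 reads. A minus end appeared on chromosome 7 at 148084841, with 0 of 1913 pair reads and then 122 and 112 reads (at least 68.7-fold higher), beside a plus end at 148084541 with 895 and 1018 and then 719 and 868 reads. The minus end at 133589374 on chromosome 7 (plus partner at 133589415) had 0 of 93 reads and then 152 and 138 (at least 85.2-fold higher). In these 4 pairs the partner 38 to 300 nt away was present in both states.

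Among pairs with both ends called, those on chromosome 1 at 75482268 and 75482400 and on chromosome 4 at 129992707 and 129992625 had the largest opposite changes in differentiation. On chromosome 1 the minus end rose from 0.881 and 1.41 CPM to 40.5 and 45.4 CPM (log2 fold change 5.16, SE 0.32, edgeR adjusted p = 1.38e-17) as the plus end fell from 6.46 and 7.52 CPM to 2.45 and 1.41 CPM (-1.87, SE 0.44, adjusted p = 0.000378). On chromosome 4 the plus end rose from 4.99 and 2.58 CPM to 46.5 and 40.4 CPM (3.55, SE 0.26, adjusted p = 4.05e-15), and the fall of the minus end was lost without either proliferating replicate and without differentiated replicate 1 (adjusted p up to 0.169). On chromosome 1 the lead passed from the plus to the minus strand. Both ends rose on chromosome 11 at 102298123 and 102298295, where the plus end had 244 and 209 CPM and 387 and 389 CPM (0.78, SE 0.11, adjusted p = 1.75e-07) and the minus end 0.587 and 2.35 CPM and 17.1 and 18.1 CPM (3.47, SE 0.38, adjusted p = 3.13e-10), and on chromosome 6 at 72309752 and 72309708 (1.66 and 1.22, SE 0.28 and 0.19, adjusted p = 2.37e-06 and 1.06e-06). Both ends fell on chromosome 13 at 55426633 and 55426536, an overlap of 97 nt, with 450 and 435 CPM and then 161 and 144 CPM on the plus strand (-1.53, SE 0.11, adjusted p = 5.7e-15) and 29.7 and 29.6 CPM and then 5.44 and 7.53 CPM on the minus strand (-2.17, SE 0.24, adjusted p = 4.25e-10). On chromosome 19 at 7052242 and 7052075 both were lower too (-2.67 and -1.35, SE 0.39 and 0.41), with the minus end not passing without proliferating replicate 2 (adjusted p = 0.0862).

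In NIH3T3 no end of a close pair was called under siPcf11. edgeR called 0 of 405 ends tested, with 86 at an unadjusted p under 0.05 and 11 called by DESeq2, and 0.00% of all 12625 kept ends tested were called. It called 0 of 165 pairs on both ends (DESeq2 0) and 0 of 194 for the balance, with 29 of these at an unadjusted p under 0.05 and 0 called by diffSpliceDGE, another test of edgeR. The shares over all kept ends and other pairs by the unadjusted p and by DESeq2 are not given here. Counts by those measures are therefore not read as a response of close pairs. The 2 siPcf11 libraries differed from each other far beyond counting noise, since chi-square over the close ends was 20.4 per degree of freedom, against 3.66 in the NIH3T3 controls. Close ends were called when either siPcf11 replicate was left out, in fits with 1 siPcf11 library. The share over all kept ends in those fits is not given here, so these calls are not read as a response of close pairs. The median log2 fold change of the 405 ends was -0.14. Absence of calls here therefore shows no absence of change.

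In 4T1, 3 of 379 ends were called in Pcf11-IPAKO cells, 1 higher and 2 lower, beside 1.22% of all kept ends tested (0.874% higher and 0.343% lower), and 5 to 7 with control replicate 1, control replicate 2 or Pcf11-IPAKO replicate 2 left out. Without a term for the replicate number, no pair had both ends called among 145, in edgeR or DESeq2, with 31 ends at an unadjusted p under 0.05. The share of all kept ends at that p is not given here. Same-numbered libraries deviated together in 4T1 (r = 0.53). With such a term more ends were called, and some pairs on both ends, as given in the last paragraph. Replicate libraries stood apart here too, at a chi-square of 20.8 per degree of freedom in controls and 22.4 in Pcf11-IPAKO cells, and the Pcf11-IPAKO libraries listed 105666 and 203899 positions against 53146 and 97285 in controls. Their part in the result was not tested. The balance was called in 1 of 188 pairs (1.01% of the others), the chromosome 8 pair at 73027977. Its plus end had 12 and 10 reads in controls, beside 512 and 1410 on the minus end. In Pcf11-IPAKO cells it had 0 of 1422, which allows a share of up to 0.211%. Against a floor of 3 counts it was 7.19-fold lower. The call (adjusted p = 0.0383) was lost without control replicate 1 and without either Pcf11-IPAKO replicate (adjusted p up to 0.283). The median log2 fold change of the 379 ends was -0.10.

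Which strand led a pair differed between cell lines in a minority of pairs. An end was taken to lead when it held over 60% of the pair's reads in both libraries of a group. Between C2C12 total RNA and NIH3T3 controls, with at least 20 reads per library, the same strand led in 132 of 228 pairs, the other strand in 14, and 82 had no lead in 1 or both lines. C2C12 and 4T1 controls gave 129, 18 and 57 of 204 pairs, and NIH3T3 and 4T1 controls 114, 19 and 73 of 206. Between control and siPcf11 C2C12 cells in total RNA the lead passed to the other strand in 3 of 212 pairs, between proliferating and differentiated cells in 11 of 243, and between total RNA controls and proliferating C2C12 cells in 0 of 237. The lines share no library, so a line and the preparation of its libraries cannot be told apart in these counts. The counts include pairs with an end that is a member through the group or line where it is high. For differentiation these include the chromosome 7 pair with its plus end at 52594343 and that with its plus end at 133589415. Such counts are not given here for farther pairs, so they are a description only. One change of lead between lines, named after its values were seen, was on chromosome 17 at 37085356 and 37085302. There the plus end had 109 and 153 CPM and the minus end 11.3 and 14.4 CPM in 4T1 controls, while in C2C12 total RNA and NIH3T3 controls the plus end had no reads within 24 nt and the minus end 48.6 and 43.6 CPM and 15.3 and 17.1 CPM. On chromosome 11 at 5772091 and 5772191 the plus end led in C2C12 (172 and 136 CPM against 57.8 and 54.9 CPM) and NIH3T3 (305 and 260 CPM against 53.1 and 61.2 CPM), and in 4T1 it had no reads beside 106 and 184 CPM on the minus end. The chromosome 17 plus end took 1268 of its 1276 pooled reads from 4T1 and is a member through that line, so its absence elsewhere is a description.

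As a summary over pairs, the mean share of the end with fewer pooled reads was compared between groups, over pairs with at least 20 reads in each library. In C2C12 total RNA it was 22.1% ± 0.0865 (SD, n = 2) in controls and 20.8% ± 0.14 under siPcf11 over 198 pairs (exact two-sided permutation p = 0.333, the smallest possible). In 4sU RNA it was 22.3% ± 0.112 and 21.8% ± 0.0247 over 203 pairs (exact p = 0.333). In differentiation it was 25.1% ± 0.303 in proliferating and 25.9% ± 0.383 in differentiated cells over 234 pairs (exact p = 0.333). The end with fewer reads was chosen by pooled reads that include the libraries compared. Without the differentiated cells, 31 member ends would have missed the minimum of pooled reads. Part of these differences can therefore follow from the choice of ends, how much was not tested, and they are given as a description. The shares were below the controls in both siPcf11 libraries of total and of 4sU RNA. They were above both proliferating libraries in both differentiated libraries. Group differences were -1.36, -0.52 and 0.83 percentage points. The first was -0.05 without siPcf11 replicate 1, the second -0.87 without siPcf11 replicate 2 and the last 1.30 without differentiated replicate 1. Over pairs within 100 nt the 3 were -3.09, -2.33 and 2.06, and with the median over pairs -5.46, -4.78 and -0.34. In NIH3T3 (27.5% and 27.2%, exact p = 0.667), 4T1 (22.9% and 22.8%, exact p = 1.0) and control 4sU against total RNA (23.4% and 23.1%, exact p = 0.667) the libraries of the groups overlapped.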

How the data were processed

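Reads per poly(A) site were measured by 3′READS in 20 libraries. The deposited tables list counts, whole reads per position and strand that the authors left unnormalized, as the file headers and values show. Cutadapt, Bowtie2 and STAR and the build mm9 are named in the submitters' processing notes, and the rule by which positions were clustered is not stated there. Libraries of 3T3-L1 RNA-seq (2) were left out, being another assay.

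Groups came from the labels. Sites were tested with edgeR 4.0.16 (R 4.3.3, limma 3.58.1) quasi-likelihood F-tests, TMM scaling and the filterByExpr filter (minimum count 10), with Benjamini-Hochberg adjustment over all sites tested and a threshold of 0.05. The 8 C2C12 siRNA libraries were fitted together, the other lines and the differentiation set apart. CPM quoted beside fold changes of pairs chosen for their change are TMM-scaled, and those of the 5 best-read and 3 closest pairs are scaled to library totals. Balance is the interaction of strand and group, with a term for each library. A standard error is the log2 change divided by the square root of F. Both were tested on simulated data. Named were the 5 pairs with most reads on the weaker end, the 3 closest (ties at 1 nt by pooled reads), per comparison up to 2 pairs with both ends called and not overlapping in each direction (largest smaller change) and 2 with the largest called balance change each way, and those next to the cutoffs. Counting intervals (95%, exact) and floors of 3 counts cover counting error only, since PCR reads are not independent molecules. A fold against such a floor takes the reads of the other group as they are, without their counting error. p-values measure the spread between libraries, which may be technical. Chi-square per degree of freedom between replicates was 1.97 to 22.4 over the close ends.

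Members and lists were chosen with earlier results of these data known. Alternatives were library totals or DESeq2 size factors, no filter, DESeq2 1.42.0, diffSpliceDGE, a replicate block, other cutoffs, sites merged within 24 nt and each library left out. Leaving out pairs within 24 nt of another, ranking ends by other lines and the lead counts were added after seeing the data. Tables and plots used Python 3.11.15, pandas 2.3.3, numpy 2.4.6, scipy 1.17.1 and matplotlib 3.10.9.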

Additional observations from a re-analysis of the deposited data

Results flagged for a closer look

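The response to siPcf11 differed between 4sU and total RNA at 1 end of the close pairs, the plus end at 179993149 on chromosome 2, by 0.65 on the log2 scale (SE 0.16, edgeR adjusted p = 0.0179). In 4sU RNA it had 2114 and 2079 scaled CPM in controls and 2818 and 3769 under siPcf11 (log2 fold change 0.65, adjusted p = 1.23e-07), and in total RNA 2144 and 1937 in controls and 2073 and 2005 under siPcf11 (-0.00099, adjusted p = 0.996). The difference did not pass with library totals (adjusted p = 0.111), with DESeq2 (0.12), with DESeq2 size factors (0.0663) or without 4sU siPcf11 replicate 2 (0.656), 4sU control replicate 2 (0.0769), total control replicate 1 (0.269) or either total siPcf11 replicate (0.142 and 0.21).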

How the results depend on the processing

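The 20 libraries limit every comparison to 2 against 2, and ends with few reads cannot show moderate changes. Counts of called ends, both directions summed, and of called balances stayed within 1.5 times for siPcf11 in both C2C12 RNAs and for differentiation under all alternatives run. Of the single directions, the 78 higher ends of 4sU siPcf11 did not, with 49 under library totals, 47 without the filter and 51 without siPcf11 replicate 1. The share of pairs with both ends called fell with DESeq2 to 22.6% (total siPcf11), 21.1% (4sU siPcf11), 4.58% (4sU against total) and 19.9% (differentiation), and rose to 39.3% for 4sU siPcf11 with a minimum of 500 pooled reads. For 4sU against total RNA, called ends were 56 without the filter and 65 with DESeq2, and in NIH3T3 28 and 11. The shares over all kept ends under these alternatives are not given here, and the cause of the changes was not tested.

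The difference in the mean share of the weaker end changed sign in NIH3T3 (0.22 as the median over pairs, 0.41 with sites merged), in 4T1 (1.29 as the median, 0.73 within 100 nt, 0.22 merged) and in differentiation (-0.34 as the median). The cause was not tested.

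With 1 library left out, where the lone library of a group is assumed to vary like the others, the percent of pairs with both ends called was 23.1 to 27.2 (total siPcf11), 19.0 to 26.9 (4sU siPcf11), 2.07 to 5.18 (4sU against total), 0 to 22.3 (NIH3T3) and 22.7 to 29.9 (differentiation). Called ends were 56 to 90 (4sU against total), 0 to 195 (NIH3T3) and 2 to 7 (4T1), and called balances 6 to 16, 0 to 73 and 0 to 1. The share of the weaker end differed by -0.11 to 0.61 points (4sU against total), -0.56 to 0.11 (NIH3T3) and -0.13 to 0.22 (4T1). Fewer libraries were fitted in all of these, and the shares over all kept ends in these fits are not given here.

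Replicate numbers are shared between groups. Titles call the C2C12 total RNA libraries input, which may tie each to the 4sU library of its number, and no other label gives the pairing an origin. Each comparison has only 2 such pairs. Same-numbered libraries deviated together in 4T1 (r = 0.53) and little elsewhere (-0.03 to 0.14). With a replicate block, 27 ends (8 higher, 19 lower), 3 balances and 2 of 145 pairs on both ends (1 both higher, 1 both lower) were called in 4T1. In control 4sU against total RNA 133 ends, 28 balances and 21 pairs on both ends were called, and the counts of the other comparisons stayed within 1.5 times too. The shares over all kept ends and other pairs with this block are not given here. The counts with the block are therefore not read as a response of close pairs.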
